A study of Mus musculus with 20 samples.

Results

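Chemokine receptors of tissue homing were followed in donor T cells of mice with graft-versus-host disease. The 9 receptor genes were chosen by symbol, *Ccr9*, *Ccr2*, *Ccr4*, *Ccr6*, *Ccr8*, *Cxcr3*, *Cxcr4*, *Cxcr6* and *Cx3cr1*, and 8 of them were analysed here among the 17101 genes of the deposited table, since *Cxcr3* was not analysed here. No measured value entered the choice of the genes, although it was made with earlier results of these data known. RNA was measured in 20 libraries of donor T cells sorted from the spleens of recipients on day 10 after transplantation, with 4 libraries in each of 5 groups. KO donors carried *Dnmt3a* flanked by loxP sites on both alleles (CD4-Cre 2loxP) and Cre recombinase under the *Cd4* promoter, so that the DNA methyltransferase was removed in cells of the T lineage that use this promoter, and WT donors were littermates. CD4+ and CD8+ cells were sorted from recipients of KO and of WT cells, and CD4+CD8+ double-positive (DP) cells from recipients of KO cells. Per the labels, donors were 6 to 12 weeks and recipients 8 to 12 weeks of age, and per the methods of the study the recipients were irradiated female mice given donor marrow and T cells.

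The labels number the KO libraries 1 to 4 in each subset and the WT libraries 2, 3, 5 and 6, and libraries of a genotype that share a number are treated as the same animal. Whether a number stands for a single recipient or a pool is not given in the sources used here. P values therefore measure the spread between these libraries. The reads on genes numbered 37547651 to 46966318 in a library. *Dnmt3a* lay at normalized counts of 650.4 to 2007 in the 12 KO libraries and of 3542 to 5171 in the 8 WT libraries, without overlap. *Cd4* lay at 44804 or more in the CD4+ libraries and at 8758 to 15351 in DP cells. In CD8+ libraries it lay at 302 to 458 in KO and at 9.88 to 79.6 in WT, without overlap. *Cd8a* was 41594 or more in the CD8+ and DP libraries and 586 or less in 7 CD4+ libraries, whereas KO CD4+ animal 1 held 3771. *Cd8b1* was likewise highest among CD4+ libraries in that animal, at 4515 against 788 or less in the others. The DP library of KO animal 3 stood apart in another way, with reads on 11783 genes against at least 13203 in each of the other 19 libraries.

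Chemokine receptors are proteins of the cell surface that cross the membrane 7 times and turn a gradient of a secreted chemokine into directed movement, through inhibitory G proteins. Each receptor reads a small set of chemokines that particular tissues make, so the receptors on a T cell help to decide where it travels. CCR9 reads CCL25 of the small intestine and thymus, CCR4 and CCR8 read chemokines of skin and of inflamed tissue, CCR6 reads CCL20 of mucosa, CCR2 reads the monocyte attractants, CXCR4 reads CXCL12 of bone marrow, CXCR6 reads CXCL16, which is abundant in liver, and CX3CR1 reads the membrane-bound chemokine fractalkine and marks cytotoxic effector cells. Because DNMT3a adds methyl groups to cytosines that stand before a guanine (CG), the number of CGs just before the start of a gene is of interest here.

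In RefSeq for GRCm38.p6, 6 of the 8 genes lie on chromosome 9, where *Ccr9* (chr9:123767211-123783457, + strand), *Cxcr6* (chr9:123806477-123811754, + strand) and *Ccr2* (chr9:124101918-124109140, + strand) are close to each other and *Ccr8* (chr9:120092133-120094906, + strand), *Cx3cr1* (chr9:120048683-120068296, - strand) and *Ccr4* (chr9:114490316-114505476, - strand) lie elsewhere. *Cxcr4* is on chromosome 1 (chr1:128588199-128592299, - strand) and *Ccr6* on chromosome 17 (chr17:8236041-8258519, + strand). *Cxcr6* lies over *Fyco1*, which is on the opposite strand, and 0 of its exon bases are shared with exons of that gene. The 250 bases before the start of *Ccr9*, *Cxcr4* and *Cxcr6* are printed here, for the receptor of gut homing that varied by animal, the clearest rise and the highest level. They are given 5′ to 3′ on the strand of the gene, with each CG in capitals.
Ccr9, chr9:123766961-123767210, + strand: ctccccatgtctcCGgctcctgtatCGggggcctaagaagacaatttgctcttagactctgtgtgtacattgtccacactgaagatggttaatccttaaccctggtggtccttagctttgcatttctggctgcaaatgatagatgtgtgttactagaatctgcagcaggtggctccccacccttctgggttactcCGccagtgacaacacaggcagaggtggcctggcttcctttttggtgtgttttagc
Cxcr4, chr1:128592300-128592549, - strand: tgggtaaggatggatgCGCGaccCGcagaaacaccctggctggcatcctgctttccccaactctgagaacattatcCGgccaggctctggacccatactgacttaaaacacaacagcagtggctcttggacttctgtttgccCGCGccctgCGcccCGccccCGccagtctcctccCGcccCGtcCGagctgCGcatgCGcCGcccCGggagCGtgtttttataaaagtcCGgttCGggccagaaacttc
Cxcr6, chr9:123806227-123806476, + strand: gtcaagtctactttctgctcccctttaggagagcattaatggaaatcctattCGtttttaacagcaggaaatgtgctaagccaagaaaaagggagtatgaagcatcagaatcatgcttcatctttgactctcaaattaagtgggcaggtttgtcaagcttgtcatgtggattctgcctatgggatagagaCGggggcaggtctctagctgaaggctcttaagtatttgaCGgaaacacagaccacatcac
The *Cxcr4* window holds 19 CGs, the *Ccr9* window 3 and the *Cxcr6* window 3. Among all RefSeq promoters of this length the median was 6 CGs, with quartiles of 2 and 16, and 92.1% held a CG. As many CGs as before *Cxcr4* were found in 19.7% of the promoters, and as few as before *Ccr9* and *Cxcr6* in 37.8%. The windows of *Ccr2*, *Ccr8* and *Ccr6* held 1 CG each at the first listed start, that of *Ccr4* held 3 and that of *Cx3cr1* held 4, and a second start of *Ccr6* had 7. So 7 of the 8 genes have fewer CGs before a listed start than the median promoter, and *Cxcr4* has many. Methylation at these bases was not analysed here.

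Divided by the length of the exons of each gene, *Cxcr6* was the highest of the receptors in all 5 groups, with means of 6956 to 10531 normalized counts per kilobase. *Ccr2* came next in each group, at 1462 to 2820 normalized counts per kilobase. The range of *Cxcr6* did not overlap that of *Ccr2* in any group. *Cxcr4* followed *Ccr2* in 4 groups, and in WT CD8+ cells *Cx3cr1* stood above it. At the lower end of the scale per kilobase, *Ccr6* had the lowest mean in CD4+ cells, at 37.8 ± 14.9 (SD, n = 4) in KO and 85.3 ± 5.68 in WT, and *Ccr4* had the lowest mean in CD8+ and DP cells, at 0.818 ± 0.679 in WT CD8+ cells. Between KO and WT cells of the same subset, *Ccr9* stood at place 5 in KO and 7 in WT in this order. In WT cells its mean per kilobase was 143 ± 71.8 in CD4+ cells, where its range overlapped those of *Ccr4* and *Ccr6*, and 60.3 ± 11.8 in CD8+ cells, where it overlapped that of *Ccr6*. In KO cells its mean stood above both, at 481 ± 304 in CD4+ and 291 ± 295 in CD8+ cells, although its lowest KO CD4+ library still met the range of *Ccr4*.

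**Figure D1:**
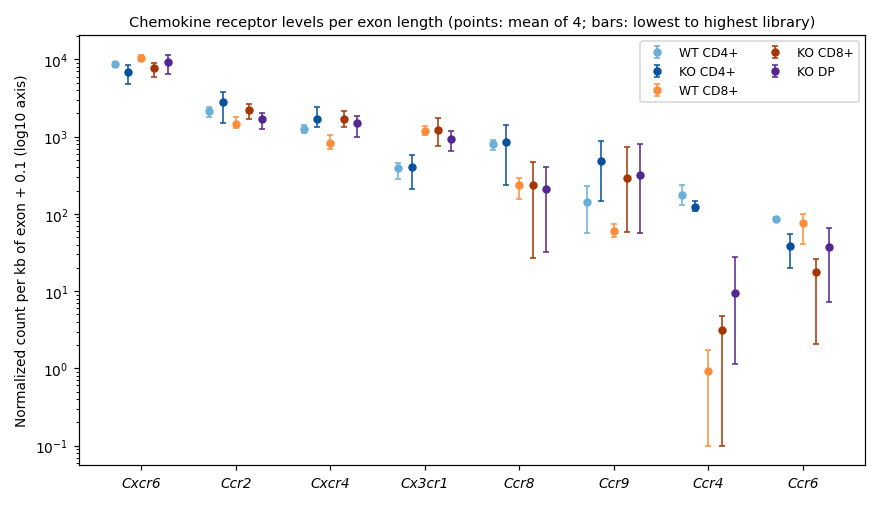
Normalized counts per kilobase of exon (log10 axis, 0.1 added) of the 8 receptors in the 5 groups, with points for the mean of 4 libraries and bars from the lowest to the highest library. *Cxcr6* leads in every group, and *Ccr4* falls from 122 and 178 per kilobase in CD4+ cells to 9.46 or less in CD8+ and DP cells.

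Gut homing was examined first. *Ccr9*, the receptor for CCL25, had normalized counts of 2067, 639, 1873 and 3875 in CD4+ cells of KO animals 1 to 4. The WT CD4+ libraries of animals 2, 3, 5 and 6 held 737, 251, 996 and 532. So 3 of the 4 KO libraries lay above all WT libraries, while KO animal 2 lay within their range. In CD8+ cells the KO libraries held 818, 256, 861 and 3178, and the WT libraries 297, 218, 321 and 223. KO animal 2 again lay within the WT range, and the other 3 lay above it. The mean was 3.36 times that of WT in CD4+ cells (2114 ± 1334 against 629 ± 315, SD, n = 4) and 4.83 times in CD8+ cells (1279 ± 1296 against 265 ± 51.9). Without KO animal 4, which held the highest values, these ratios were 2.43 and 2.44.

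In log2 units, with 1 added to each count, the KO minus WT difference of *Ccr9* was 1.65 ± 0.53 (SE) in CD4+ cells (95% interval 0.48 to 2.82) and 1.74 ± 0.61 in CD8+ cells (0.38 to 3.09). Neither passed the threshold of 0.05 after adjustment over all genes with limma, with adjusted p = 0.0522 and 0.0624. The call depended on the test. edgeR on the recovered reads called *Ccr9* in CD4+ cells (adjusted p = 0.0389) and in CD8+ cells (0.0271), and DESeq2 did so with 0.0230 and 0.00679. Without KO animal 2, limma gave 2.14 (adjusted p = 0.00932) for the CD4+ difference and 2.32 (0.00992) for the CD8+ difference. The other 7 leave-one-out fits missed the threshold in each subset, with adjusted p of up to 0.130 (CD4+) and 0.139 (CD8+). The difference was as low as 1.27 in CD4+ cells (without WT animal 3, and also without KO animal 4) and 1.11 in CD8+ cells (without KO animal 4). Plasmacytoid dendritic cells and thymocytes also carry *Ccr9*. The summed counts of 6 other dendritic and plasmacytoid cell markers were 3531 to 4932 in KO CD4+ and 3835 to 4314 in WT CD4+ libraries, and in CD8+ libraries 6931 to 14031 (KO) and 8854 to 11991 (WT). *Bst2* and *Itgax* had the highest means of the 6, at 2363 and 1209 in KO CD4+ and 2564 and 828 in WT CD4+ cells. *Flt3* (1.43 in KO, 49.5 in WT), *Clec9a* (9.76, 88.5) and *Zbtb46* (40.6, 195) averaged lower in KO CD4+ cells, and *Tcf4* was 426 and 365. In CD8+ cells the same 3 averaged 11.4 against 66.0, 6.81 against 108 and 24.0 against 59.3. Of 7 thymocyte markers, *Rag1* and *Arpp21* were at 3 or less in all KO CD4+ and KO CD8+ libraries, whereas in CD4+ cells *Dntt* averaged 8.24 (KO) and 5.09 (WT), and *Themis* (11674 and 13356) and *Cd1d1* (556 and 757) were far above that level. The sum over the 7, which includes *Cd8a*, was 11605 to 14737 in KO CD4+ and 12998 to 14977 in WT CD4+ libraries, and 56556 to 81643 (KO) and 75135 to 81496 (WT) in CD8+ libraries. The part of such cells in the values of *Ccr9* was not tested. In exact permutation tests p was 0.0857 in both subsets, where 4 libraries against 4 cannot go below 0.0286. Without a block, the genotype by subset interaction of *Ccr9* was -0.08 ± 0.89 log2 units (SE, 95% interval -1.97 to 1.80, limma). With the animal as a block, which uses the pairing of the subsets, it was -0.08 ± 0.30 (adjusted p = 0.935, limma).

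The spread of *Ccr9* followed the animal. Among KO animals, 2 was the lowest and 4 the highest in CD4+, CD8+ and DP cells alike, and the highest library exceeded the lowest 6.06 times in CD4+, 12.4 times in CD8+ and 14.3 times in DP cells. DP cells held 1022, 248, 779 and 3559 in animals 1 to 4. Among WT animals the order was 3, 6, 2, 5 from low to high in both subsets, with 3.96 times between the ends in CD4+ and 1.47 times in CD8+ cells. Within an animal, *Ccr9* was higher in CD4+ than in CD8+ cells in 4 of 4 KO and 4 of 4 WT animals. The CD4+ to CD8+ ratio was 2.53, 2.49, 2.17 and 1.22 in KO animals and 2.48, 1.15, 3.10 and 2.38 in WT animals. In WT cells this difference passed the test (1.10 ± 0.32 log2 units, adjusted p = 0.0124, limma). In KO cells it was 1.01 ± 0.72 with an adjusted p of 0.594, and with the animal as a block 1.01 ± 0.16 with an adjusted p of 0.00246.

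**Figure D2:**
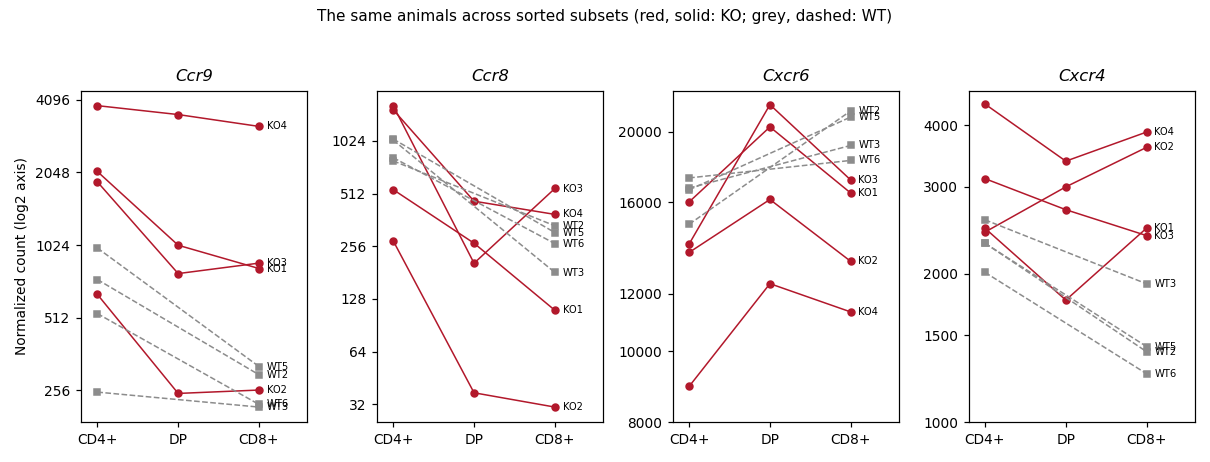
Normalized counts (log2 axis) of *Ccr9*, *Ccr8*, *Cxcr6* and *Cxcr4* in CD4+, DP and CD8+ cells, with a line for each animal, KO solid and WT dashed. KO animal 4 is highest for *Ccr9* and *Cxcr4* and lowest for *Cxcr6* in all 3 subsets, and KO animal 2 is lowest for *Ccr9* and *Ccr8* in all 3.

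Across the 20 libraries, which come from 8 animals and share these groups, the genes most like *Ccr9* on the log2 scale were *Zfp64* (Pearson r = 0.910), *Mettl21a* (0.901) and *Il4ra*, a chain of the interleukin-4 receptor (0.888), among genes whose mean was 50 or more. These values are a description. *Il4ra* averaged 5296 (KO) against 3524 (WT) in CD4+ cells and 3622 against 2010.0 in CD8+ cells.

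*Cxcr4* showed the clearest rise among the receptors. In CD8+ cells the KO libraries held normalized counts of 2473, 3605, 2388 and 3872 and the WT libraries 1389, 1907, 1423 and 1253. Each KO library lay above each WT library, and the mean was 2.07 times that of WT (3084 ± 764 against 1493 ± 285). The difference was 1.03 ± 0.19 log2 units (95% interval 0.61 to 1.45, adjusted p = 0.00563, limma), and it passed the test in each of 10 alternatives without a block and with each of the 8 libraries left out. In CD4+ cells the KO libraries held 2471, 2427, 3115 and 4411 and the WT libraries 2305, 2570.2, 2304 and 2012. These groups overlapped, and the difference of 0.40 ± 0.17 had an adjusted p of 0.128. Without a block, the difference between the subsets itself, CD4+ minus CD8+, was -0.63 ± 0.28 with an adjusted p of 0.730 (limma). With the animal as a block it was -0.63 ± 0.17 with an adjusted p of 0.0879, which also missed the threshold. WT CD4+ cells held more *Cxcr4* than WT CD8+ cells in 4 of 4 animals, with ratios of 1.66, 1.35, 1.62 and 1.61 (adjusted p = 0.000455, limma), whereas the KO ratios were 0.9991, 0.673, 1.30 and 1.14.

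*Cxcr6*, the receptor for CXCL16, was lower in KO CD8+ cells. The KO libraries held 16480.0, 13285, 17172 and 11326 and the WT libraries 21364, 19154, 20951 and 18269. The groups did not overlap, and the mean was 0.731 times that of WT (14566 ± 2744 against 19934 ± 1467). The difference was -0.47 ± 0.13 log2 units (adjusted p = 0.0274, limma) but the call was lost without a trend in the variance (0.0575) and in the joint fit of 20 libraries (0.0807), and 5 of the 8 leave-one-out fits missed the threshold (KO animal 2 and each WT animal, adjusted p 0.0518 to 0.0786). In CD4+ cells *Cxcr6* was 16023, 13665, 14031 and 8953 in KO and 14935, 16743, 16651 and 17288 in WT, with overlap and a difference of -0.35 ± 0.15 (adjusted p = 0.132). KO animal 4 was the lowest for *Cxcr6* in CD4+, CD8+ and DP cells, and it was the highest for *Cxcr4* in the same 3 subsets.

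*Ccr6*, the receptor for CCL20 that marks Th17 cells and many B cells, was lower in both KO subsets at a low level. CD4+ cells of KO animals held normalized counts of 67.9, 93.3, 114 and 41.7 and those of WT animals 192, 169, 186 and 168. In CD8+ cells KO animals held 53.5, 4.12, 40.4 and 49.2 and WT animals 85.5, 176, 210.3 and 169.6. The groups did not overlap in either subset. The mean was 0.443 times that of WT in CD4+ cells (-1.25 ± 0.31 log2 units, adjusted p = 0.0230, limma) and 0.230 times in CD8+ cells (-2.47 ± 0.72, adjusted p = 0.0333). The KO CD8+ library of animal 2 rests on 4 reads, and without it the CD8+ difference was -1.66 with an adjusted p of 0.0121. These calls were near the threshold. In CD4+ cells the adjusted p was 0.0762 after quantile normalization and 0.237 in the joint fit, and 5 of 8 leave-one-out fits missed it (KO animal 1 and each WT animal, 0.0516 to 0.0658). In CD8+ cells the adjusted p was 0.0594 without a trend, and 4 of 8 leave-one-out fits missed the threshold (each WT animal, 0.0514 to 0.0911). B cells also carry *Ccr6*. Of 8 B cell markers, the summed normalized counts were 1650 to 2162 in KO CD4+ and 1259.7 to 1693 in WT CD4+ libraries, with *Pax5* and *Blnk* at a count of 3 or less in all KO CD4+ libraries and *Ms4a1* in all WT CD4+ libraries. In CD8+ cells that sum was 1717 to 2755 in KO and 434 to 549.6 in WT, so it was higher in KO libraries, where *Ccr6* was lower, and *Cd79b*, a chain of the B cell receptor complex, averaged 1844 and 198. In KO CD8+ libraries *Ms4a1* and *Pax5* were at 3 or less throughout. Of the Th17 markers other than *Ccr6*, the sum was 5436 to 8165 in KO CD4+ and 6239 to 7582 in WT CD4+ libraries. The part of either cell type in the values of *Ccr6* was not tested.

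*Ccr2*, the receptor for CCL2 on monocytes and effector T cells, was 9179.6, 9415, 6067 and 6678 in KO CD8+ and 6366, 5209, 4623 and 4795 in WT CD8+ libraries. The ranges met, since KO animal 3 lay below WT animal 2. The mean was 1.49 times that of WT, with a difference of 0.56 ± 0.16 log2 units (adjusted p = 0.0302, limma). The call was lost with a common 75th percentile (0.0687), without a trend (0.0627), in the joint fit (0.102) and in 5 of 8 leave-one-out fits (KO animals 1 and 2 and WT animals 3, 5 and 6, 0.0526 to 0.0879). In CD4+ cells the KO libraries held 13535, 12709, 8798 and 5440.4 and the WT libraries 7569, 6499, 8663 and 7669.7. KO animals 1 to 3 lay above all WT animals and KO animal 4 below them, and the difference of 0.33 ± 0.24 (adjusted p = 0.345) became 0.60 with an adjusted p of 0.0303 without KO animal 4, while the other 7 leave-one-out fits missed the threshold. The summed counts of 8 monocyte and macrophage markers were 1309 to 1707 in KO CD4+ and 1822 to 2341 in WT CD4+ libraries, and 2502 to 6276 in KO CD8+ and 2812 to 4379 in WT CD8+ libraries. Their part in these values was not tested. In bulk RNA, fewer cells that carry a receptor and less of its RNA in each cell cannot be told apart.

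*Ccr4* and *Ccr8* are receptors of skin-homing and regulatory T cells. *Ccr4* was a transcript of CD4+ cells, with normalized counts of 316, 413, 307 and 327 in KO and 659.7, 364, 538 and 418 in WT CD4+ libraries. The KO and WT ranges overlapped through KO animal 2 and WT animal 3, and the difference of -0.51 ± 0.20 had an adjusted p of 0.0978. In CD8+ cells KO libraries held 12.8, 0, 12.3 and 8.52 and WT libraries 1.74, 2.88, 4.49 and 0, which rest on at most 12 reads each, and *Ccr4* was below the minimum mean of 10 for a test there. *Ccr8*, the receptor for CCL1, was 539, 275, 1627 and 1542 in KO CD4+ and 787, 1035, 1049 and 821 in WT CD4+ libraries. KO animals 3 and 4 lay above all WT animals and KO animals 1 and 2 below them. The same animals lay above and below the WT range in CD8+ cells, with 110.3, 30.9, 547 and 389 in KO and 335, 181, 306 and 265 in WT libraries. The differences of -0.23 ± 0.49 in CD4+ and -0.68 ± 0.77 in CD8+ cells did not pass the test (adjusted p = 0.752 and 0.535, limma). The summed counts of 7 regulatory T cell markers were 24009.5 to 37873 in KO CD4+ and 33292 to 34578 in WT CD4+ libraries.

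*Cx3cr1*, the fractalkine receptor of cytotoxic effector cells, differed between subsets and not detectably between genotypes. KO CD8+ libraries held 5042, 6605, 3991 and 2836 and WT CD8+ libraries 4558, 3976, 4181 and 5160.2. The KO CD4+ libraries held 1239, 787, 2171 and 1958 and the WT CD4+ libraries 1054, 1540.1, 1636 and 1684. In both subsets the WT libraries fell inside the range of the KO libraries. The KO minus WT difference was -0.03 ± 0.29 log2 units in CD4+ cells (95% interval -0.67 to 0.62) and -0.01 ± 0.22 in CD8+ cells (-0.51 to 0.48). NK cells also carry *Cx3cr1*, and the summed counts of 6 NK cell markers were 6477 to 41953 in KO CD4+ and 4152 to 5514 in WT CD4+ libraries, with *Ncr1* at 3 or less in all of them. *Gzma* alone ran from 3372 to 36222 in KO CD4+ and from 1099 to 1317 in WT CD4+ libraries. In KO and WT CD4+ cells *Klrb1c* averaged 661 and 142, *Klrc1* 2699 and 2042, *Klrk1* 903 and 579 and *Eomes* 394 and 819. The part of NK cells in the values of *Cx3cr1* was not tested.

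In all, 1 of 8 receptors passed the test in CD4+ cells (*Ccr6*, lower), where 18.4% of the 12391 genes tested did, and 4 of 7 in CD8+ cells, where 25.2% of 12383 did. The 4 were *Cxcr4* and *Ccr2*, which rose, and *Cxcr6* and *Ccr6*, which fell. The median difference was -0.13 log2 units over the 8 receptors in CD4+ cells and -0.01 over the 7 in CD8+ cells, beside -0.05 and -0.04 over all genes tested. KO and WT libraries did not overlap for 1 of 8 receptors in CD4+ cells, against 25.6% of all genes tested, and for 3 of 7 in CD8+ cells, against 30.6%. Without KO CD4+ animal 1, the library with *Cd8a*, 0 of 8 passed in CD4+ cells, since *Ccr6* then had an adjusted p of 0.0516, and with edgeR and DESeq2 on all libraries 2 of 8 passed, *Ccr6* and *Ccr9*. Rescaling to a common 75th percentile put the all-gene median at -0.16 (CD4+) and -0.15 (CD8+), and 18.1% and 23.4% of the called genes were then higher in KO, in place of 46.8% and 50.2%. The interaction of genotype and subset passed for 0 of 8 receptors with limma, edgeR and DESeq2, where 0.0161% of all genes passed with limma. With the animal as a block it also passed for 0 of 8 receptors, where 173 of 12446 genes passed. Without a block, *Cxcr4* alone had an unadjusted p under 0.05 (limma), as did 793 of the 12446 genes tested.

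**Figure D3:**
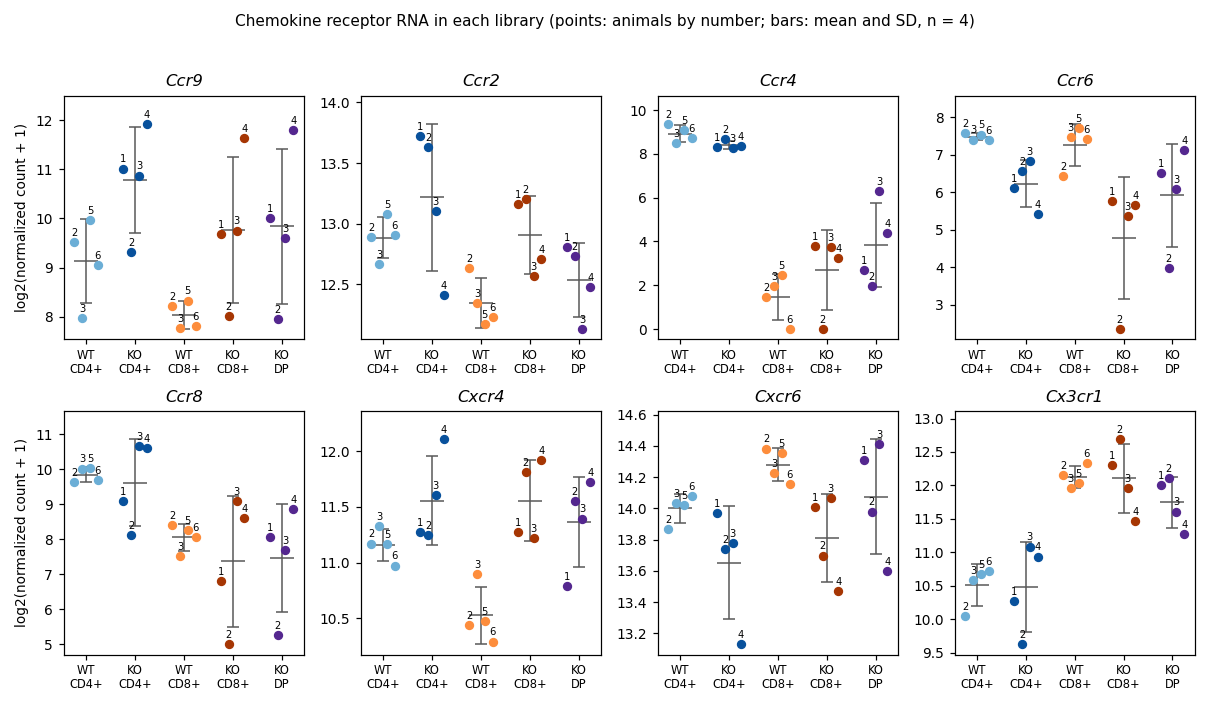
Normalized counts on the log2(count + 1) scale in each of the 20 libraries for the 8 receptors, with points labelled by animal number and bars for the mean and SD (n = 4). *Ccr6* separates KO from WT in both subsets, *Cxcr4* and *Cxcr6* separate them in CD8+ cells, and the KO points of *Ccr9* and *Ccr8* are spread widely.

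**Figure D4:**
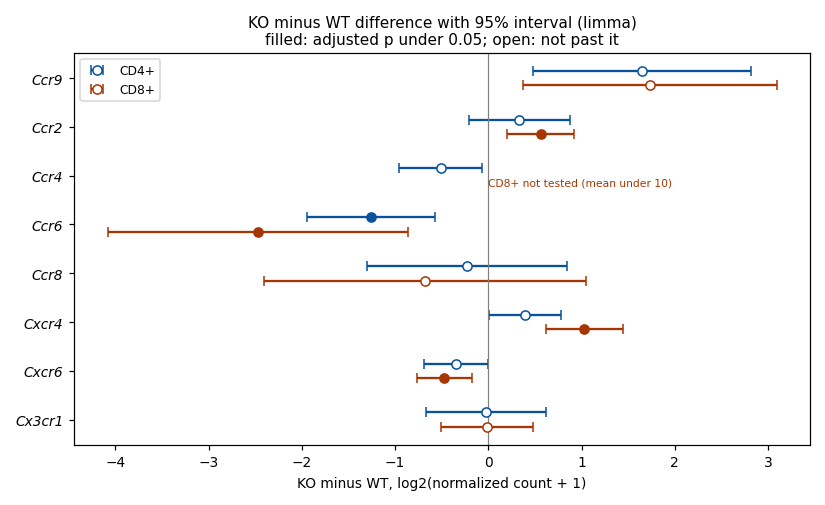
KO minus WT difference on the log2(normalized count + 1) scale with its 95% interval, CD4+ in blue and CD8+ in red, with filled points for adjusted p under 0.05. The 5 filled points are *Ccr6* in both subsets and *Ccr2*, *Cxcr4* and *Cxcr6* in CD8+ cells, and the intervals of *Ccr9* lie above 0 in both subsets with open points.

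KO animals varied more than WT animals. The SD on the log2 scale was larger in KO than in WT libraries for 7 of 8 receptors in CD4+ cells, all but *Ccr4*, and for 8 of 8 in CD8+ cells. Of all genes tested, 81.0% and 89.1% had the larger SD in KO. The median SD over the receptors was 0.61 against 0.19 (KO against WT) in CD4+ cells and 1.00 against 0.27 in CD8+ cells. Over all genes tested it was 0.25 and 0.13 in CD4+ cells and 0.27 and 0.10 in CD8+ cells.

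The subsets of WT animals differed for most of the receptors. CD4+ and CD8+ cells of WT animals differed in 7 of 8 receptors, where 44.5% of 12559 genes did, and the libraries did not overlap for 6 of 8, against 41.8% of all genes. *Ccr4* (495 ± 132 against 2.28 ± 1.89), *Ccr8* (923 ± 138 against 272 ± 66.9), *Ccr9*, *Cxcr4* and *Ccr2* (7600.3 ± 885 against 5249 ± 785) were higher in CD4+ cells. *Cx3cr1* (1479 ± 289 against 4469 ± 520.0) and *Cxcr6* (16404 ± 1019 against 19934 ± 1467) were higher in CD8+ cells. The differences ran from -1.61 ± 0.13 log2 units for *Cx3cr1* to 7.45 ± 0.47 for *Ccr4*. *Ccr6* did not pass (0.23 ± 0.24), with 178.5 ± 11.9 in CD4+ and 160.2 ± 53.0 in CD8+ cells. In the joint fit of all 20 libraries, where the wider spread of the KO libraries enters, *Ccr4* and *Cx3cr1* passed.

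In KO animals 2 of 8 receptors passed between CD4+ and CD8+ cells, where 4.22% of 12189 genes did. *Ccr4* was higher in CD4+ cells (341 ± 49.1 against 8.43 ± 5.94, 5.71 ± 0.78 log2 units, adjusted p = 0.00513, limma) and *Cx3cr1* in CD8+ cells (-1.63 ± 0.34, adjusted p = 0.0288). The call of *Cx3cr1* was lost in 4 of 8 leave-one-out fits (KO CD4+ animal 1 and KO CD8+ animals 1, 2 and 3, adjusted p 0.0522 to 0.0797) and without a trend (0.0815). With the animal as a block 4 receptors passed, since *Ccr9* and *Ccr8* (2.24 ± 0.23, adjusted p = 0.000223) were higher in CD4+ cells in 4 of 4 animals. In that fit 2305 of 12189 genes passed, against 514 without a block. The CD4+ to CD8+ ratio of *Ccr8* was 4.89, 8.90, 2.97 and 3.96 in KO animals and 2.35, 5.71, 3.42 and 3.10 in WT animals.

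DP cells arose from KO donor cells and were set against both KO subsets. Against KO CD8+ cells, 0 of 8 receptors passed with limma, edgeR or DESeq2, where 0.00823% of 12153 genes, a single gene, were called by limma. Without a block 0 of 8 had an unadjusted p under 0.05 (limma), where 237 of the 12153 genes did. With the animal as a block also 0 of 8 passed, where 1 of 12153 genes did. Of the 8, 4 had an unadjusted p under 0.05 in that fit, all with an adjusted p of 0.405. The share of all genes with such a p in that fit was not counted, so the 4 cannot be called an excess. They were *Ccr2* and *Cx3cr1*, lower in DP cells in 4 of 4 animals, and *Ccr6* and *Cxcr6*, higher in 4 of 4. The DP to CD8+ ratio of *Cxcr6* was 1.23, 1.22, 1.27 and 1.09, and that of *Ccr2* was 0.779, 0.721, 0.739 and 0.854. These ratios were close together between animals, and all 4 lay on the same side of 1 for each gene. How often this holds among all genes was not counted. *Ccr9* in DP cells was 1.25, 0.968, 0.905 and 1.12 times that of CD8+ cells of the same animal.

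Against KO CD4+ cells, 1 of 8 receptors passed without a block, where 1.95% of 12175 genes did. *Ccr4* was 5.39, 2.94, 77.0 and 20.1 in DP cells, far below the CD4+ values (-4.57 ± 0.81 log2 units, adjusted p = 0.0247, limma). The highest DP value of *Ccr4* was that of animal 3, the library with the fewest genes, and the difference without it was -5.39. The call was lost with edgeR (0.0622) and without a trend (0.0627), and with each KO CD4+ animal left out (0.0699 to 0.0817). With the animal as a block 3 receptors passed, *Ccr4* (adjusted p = 0.0161), *Ccr8* (-2.15 ± 0.34, 0.0156) and *Ccr9* (-0.94 ± 0.21, 0.0449), each lower in DP cells in 4 of 4 animals. In that fit 860 of 12175 genes passed, against 237 without a block. *Ccr8* in DP cells was 267, 37.3, 205 and 463, which is 0.494, 0.136, 0.126 and 0.300 times that of CD4+ cells of the same animal. *Cx3cr1* in DP cells was 4094, 4405, 3124 and 2480.4, above each KO CD4+ library, with a difference of 1.27 ± 0.32 (adjusted p = 0.0767, and 0.00607 with DESeq2). The remaining DP values were 7153, 6790.5, 4483 and 5704 for *Ccr2*, 90.6, 14.7, 67.0 and 138 for *Ccr6*, 1767, 2998, 2695 and 3379.7 for *Cxcr4* and 20305, 16151, 21783 and 12384 for *Cxcr6*, and all of these overlapped with both KO subsets.

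**Figure D5:**
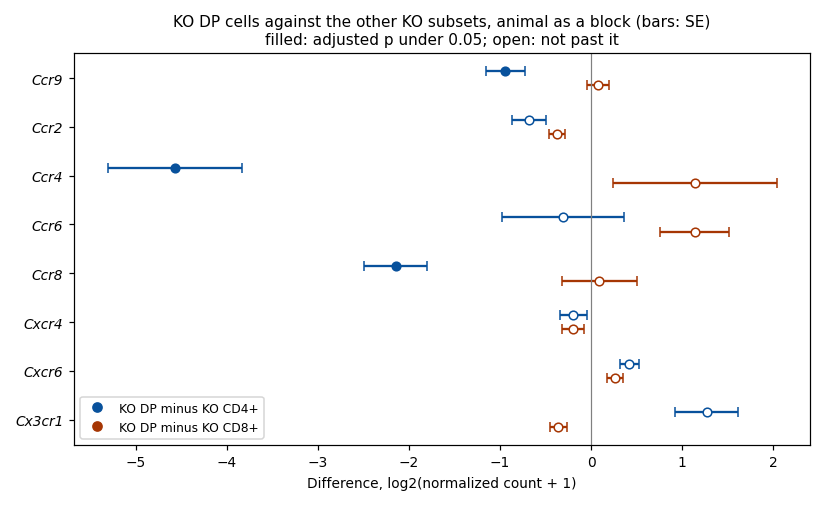
Difference of KO DP cells from KO CD4+ cells (blue) and from KO CD8+ cells (red) on the log2(normalized count + 1) scale, fitted with the animal as a block, with bars for the SE and filled points for adjusted p under 0.05. The filled points are *Ccr4*, *Ccr8* and *Ccr9* against CD4+ cells, and the differences from CD8+ cells are all open.

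The ligands, signalling proteins and other homing receptors were counted in the same comparisons, where 18.4% of all genes were called in CD4+ cells and 25.2% in CD8+ cells. Of 14 ligands of the receptors in the table, 6 were tested, and in CD4+ cells 3 fell and 0 rose in KO cells, with a median over the 6 of -1.67 log2 units. They were *Cxcl9* (48.2 in KO against 252 in WT on average) and *Cxcl10* (160.2 against 386), which CXCR3 reads, and *Ccl1* (856 against 2379), which CCR8 reads. *Cxcl9* also fell in CD8+ cells (47.8 against 228), where 1 of 6 fell and 0 rose (median -0.73). *Ccl25*, the ligand of CCR9, was 62.4 in KO and 69.1 in WT CD4+ cells on average and did not pass. Of 16 other chemokine receptors, 2 of 8 tested fell in CD4+ cells and 3 of 10 in CD8+ cells, and 0 rose (medians -0.41 and -0.70), near the 18.4% and 25.2% of all genes. *Xcr1*, a receptor for XCL1, fell from 428 to 226 in CD4+ cells and from 621 to 205 in CD8+ cells, and *Ccrl2*, an atypical receptor for chemerin, fell in both.

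Of 14 other homing receptors tested in CD4+ cells, 7 rose and 1 fell, and of 13 in CD8+ cells 5 rose and 1 fell, with medians of 0.56 and 0.51 log2 units, where 18.4% and 25.2% of all genes were called in either direction. *S1pr1*, the receptor by which lymphocytes leave lymphoid organs, rose from 7750 to 13777 in CD4+ cells and from 5241 to 11902 in CD8+ cells on average. *Itgb7*, the integrin chain that pairs with alpha-4 to bind gut endothelium, rose from 37714 to 55481 in CD4+ cells and from 36205 to 57023 in CD8+ cells. *Itga4*, the gene of alpha-4, did not pass in CD4+ cells, with means of 36486 in KO and 34467 in WT (adjusted p = 0.822, limma). In CD8+ cells it averaged 65504 ± 22928 (SD) in KO and 43152 ± 2026 in WT. Of 25 genes of chemokine receptor signal transduction, 4 rose and 1 fell in CD4+ cells and 10 rose and 1 fell in CD8+ cells (medians 0.21 and 0.29), against 18.4% and 25.2% of all genes called. Among those that rose was *Gnai3*, an inhibitory G protein subunit, higher by 0.37 ± 0.06 log2 units in CD8+ cells. Of 10 *Rgs* genes tested, which shorten G protein signals, 1 rose and 2 fell in CD4+ cells and 5 fell and 0 rose in CD8+ cells (medians -0.74 and -0.40), against 18.4% and 25.2% of all genes called. *Rgs1* fell in both, with means of 1731 in KO against 4438 in WT CD4+ cells and 872 against 3385 in CD8+ cells (adjusted p = 0.00408 and 0.000172, limma).

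Markers of other cells that a spleen sort can hold were followed beside the receptors, where 18.4% (CD4+) and 25.2% (CD8+) of all genes were called. Of 8 T cell markers, 0 passed in CD4+ cells, and *Cd247* rose and *Cd3e* fell in CD8+ cells, with *Cd3e* at 21499 against 28058 on average. Of the NK cell markers, 2 of 5 rose in CD4+ cells (*Gzma* and *Klrb1c*), and in CD8+ cells the same genes rose and *Eomes* fell. Their summed counts were 54503 to 264632 in KO CD8+ and 35114 to 46976 in WT CD8+ libraries. *Gzma* alone ran from 34225 to 229921 in these KO and from 11804 to 20577 in these WT libraries. Summed neutrophil markers were 5.89 to 3356 in KO CD4+ and 1763 to 2798 in WT CD4+ libraries, and summed erythroid markers 15.7 to 421 and 436 to 1756, and 0 of 7 and 0 of 3 passed the test in either subset. Of 7 dendritic and plasmacytoid cell markers, *Ccr9* itself among them and not called, 3 fell in each subset, including *Zbtb46* in CD4+ and *Clec9a* in CD8+ cells, and of the monocyte and macrophage markers 3 of 8 fell in CD4+ cells and 0 of 8 in CD8+ cells. B cell markers rose in 2 of 3 tested in CD4+ cells and in 1 of 3 in CD8+ cells. Regulatory T cell markers passed in 0 of 7 and 0 of 6, Th17 markers in 1 of 5 in each subset, which was *Ccr6* itself, and thymocyte markers in 0 of 3 and 1 of 3 (*Cd1d1*, lower in CD8+ cells). Their part in the receptor values was not tested.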

How the data were processed

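Poly(A)-selected, strand-specific, paired-end RNA libraries were aligned to mm10 with STAR by the authors (2.7.2b per the labels), counted by strand over the exons of UCSC gene models, and normalized with DESeq2. The deposited values are a signal, gene counts divided by a size factor for each library. Each factor was recovered from the values and equalled the DESeq2 size factor (largest relative difference 4.22e-15), and 100% of the values then came out whole within 0.001.

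The labels gave the genotype, the subset and the number of every sample. The groups of each comparison were fitted with limma 3.58.1 in R 4.3.3 (lmFit, eBayes with trend, 2-sided) on log2(normalized count + 1). Only genes whose mean reached 10 were tested, with Benjamini-Hochberg adjustment over all genes tested and a threshold of 0.05. Fold changes on this scale understate those of low genes. Exact permutation tests (48 in all, smallest adjusted p 0.0980) were run for single receptors. Counts of 3 or less were taken as not detectable. At these depths precision was set mainly by the spread between libraries.

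The receptors, the other lists and the tests were chosen with earlier results of these data known. All 9 receptors are named, with *Dnmt3a*, *Cd4*, *Cd8a* and *Cd8b1* as checks, at most the 4 largest calls with a mean of at least 50 from each other list, and the 3 genes most like *Ccr9*. *Ccl25*, *Dntt*, *Themis*, *Cd1d1* in CD4+ cells and the marker genes at 3 or less were named after their values were seen. So were the single dendritic cell markers beside *Ccr9*, the single NK cell markers beside *Cx3cr1* and the range of *Gzma* in CD8+ cells. *Itgb7* in CD4+ cells and *Itga4* were also named after their values were seen. Some genes of the other lists are counted but not reported here by name. Alternatives were a pseudocount of 10, no filter, a minimum mean of 50, quantile normalization, a common 75th percentile, TMM scaling, no trend, edgeR 4.0.16 and DESeq2 1.42.0 on recovered reads, a joint fit of 20 libraries, a replicate block by animal number, and fits that leave out a single library, for which ratios of means were also computed. The calculations were tested on simulated data.

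To see whether equal numbers pair libraries, deviations from the group means were correlated. In KO libraries, r was 0.412 to 0.498 between CD4+ and CD8+, 0.271 to 0.457 between CD4+ and DP and 0.338 to 0.538 between CD8+ and DP libraries of the same number, and in WT libraries 0.120 to 0.196, so numbers pair the libraries within a genotype. KO and WT come from different animals and share only the numbers 2 and 3, with r of 0.0696 to 0.0846 in CD4+ and -0.0024 to 0.0990 in CD8+ cells, and are not paired. Exon lengths, positions and promoters are from RefSeq for GRCm38.p6, and 8 of 8 receptors matched.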

Additional observations from a re-analysis of the deposited data

How the results depend on the processing

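For 56 results, 947 values computed under other settings were taken as the same, 49 lost and 18 gained a call, 36 moved and 36 turned in sign. For a difference, the same means that direction and side of the threshold were kept. For a number of receptors past the threshold, it includes small changes, such as 4 to 5 or 4 to 3 in KO against WT CD8+ cells. Larger relative changes of such a number were taken as moved. In KO against WT CD4+ cells, the number of receptors past the threshold (1 of 8) was 2 with a pseudocount of 10, quantile normalization, edgeR or DESeq2, 0 in the joint fit, and 0 to 2 with a library left out. In CD8+ cells (4 of 7), it was 5 with quantile normalization, edgeR or DESeq2, 3 with the common 75th percentile, 1 without a trend, 2 in the joint fit and 1 to 4 with a library left out. Between KO DP and CD4+ cells (1 of 8), it was 0 without a trend or with edgeR, 3 with DESeq2, 2 in the joint fit and 0 to 1 with a library left out. Between WT subsets (7 of 8), it was 2 in the joint fit. Between KO CD4+ and CD8+ cells (2 of 8), it was 1 without a trend and 1 to 2 with a library left out. With the replicate block, 3 receptors passed between KO DP and CD4+ cells and 4 between KO CD4+ and CD8+ cells, where the numbers pair the libraries, and it changed no other call within a genotype. Of all genes, 860 of 12175 and 2305 of 12189 passed in those 2 fits. Between KO and WT, where the numbers do not pair, the replicate block left 0 in each subset and 26 and 89 of all genes, in place of 2274 and 3118. The cause of these moves was not tested.

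Directions that turned belong to receptors that passed no test there. *Ccr8* in KO against WT CD4+ cells was 0.12 with edgeR and 0.12 with DESeq2, and -0.58 to 0.27 with a library left out, and in CD8+ cells -1.26 to 0.11. *Cx3cr1* was 0.00736 with quantile normalization, 0.0685 with edgeR, 0.0690 with DESeq2 and 0.0367 with the replicate block in CD4+ cells (-0.23 to 0.26 with a library left out), and 0.0577, 0.0570 and 0.27 with edgeR, DESeq2 and the replicate block in CD8+ cells (-0.21 to 0.20). Between KO DP and CD8+ cells, *Ccr8* was -0.16 with edgeR and -0.15 with DESeq2 (-0.70 to 0.83 with a library left out) and *Ccr9* -0.58 to 0.70. *Ccr6* ran from -0.70 to 0.34 between KO DP and CD4+ cells and from -0.0483 to 0.38 between WT subsets. Between KO CD4+ and CD8+ cells, *Cxcr4* was 0.0017 with quantile normalization and 0.0063 with DESeq2 (-0.18 to 0.12 with a library left out), and *Cxcr6* -0.27 to 0.0172. Over all genes, the KO against WT count became 1403 without a trend in CD4+ cells, 1304 and 2017 in the joint fit in CD4+ and CD8+ cells, and 628 to 2963 and 1633 to 4092 with a library left out. The count of 237 between KO DP and CD4+ cells became 124 without a trend, 728 with DESeq2, 1459 in the joint fit, 860 with the replicate block and 84 to 279 with a library left out. The count of 514 between KO CD4+ and CD8+ cells became 299, 956, 885, 2305 and 233 to 486 in the same order. The WT count of 5592 became 1610 in the joint fit, the count of 1 between KO DP and CD8+ cells became 3 with DESeq2, and the interaction count of 2 ran from 0 to 21 without and 173 with the replicate block. With 4 libraries in a group, the depth of *Ccr4* in CD8+ cells (at most 12 reads) and the spread between KO animals limit what can be shown.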
